A study of Mus musculus with 6 samples.

Results

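The genes described here are 10 genes of the major histocompatibility complex (MHC) class II presentation pathway. They were chosen by symbol from 55487 genes of the deposited table and not by their values, but with earlier results of these data known. They are the class II chains H2-Aa, H2-Ab1 and H2-Eb1, the invariant chain Cd74, the DM genes H2-DMa, H2-DMb1 and H2-DMb2, the DO genes H2-Oa and H2-Ob, and the transactivator Ciita. Bulk RNA sequencing gave their levels in marginal zone (MZ) B cells of mouse, isolated by negative selection for B cells and then flow sorting. There were 3 libraries from CD55KO mice, which lack the complement regulator CD55, and 3 from WT C57BL/6 mice, all 14 weeks old. The sources used here do not give the deleted part of Cd55, the strain background of the CD55KO mice or whether each library came from a mouse of its own. The spread behind each p-value is that between these libraries and may be technical. Where 3 values of a genotype follow each other, they are those of its replicates 1, 2 and 3.

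MHC class II molecules are pairs of an alpha and a beta chain that show peptides from endosomes to CD4 T cells. The invariant chain escorts newly made pairs to endosomes and blocks their groove until proteases remove it. DM, a relative of the class II molecules, then releases the last invariant chain fragment and edits the bound peptides, and DO, another relative found mainly in B cells, restrains DM. CIITA, the product of Ciita, is the coactivator on which transcription of these genes depends. It is recruited by proteins bound to the X and Y boxes that class II promoters share. MZ B cells are known as strong presenters of antigen to naive CD4 T cells.

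The 8 H2 genes lie together on chromosome 17, from position 34092340 (start of H2-Oa) to 34316674 (end of H2-Eb1), a stretch of 224 kb (GRCm38, GENCODE M21). H2-Aa is on the minus strand (34282744 to 34287823) and the other 7 are on the plus strand. H2-Ab1 runs from 34257689 to 34269419, H2-Ob from 34238903 to 34254414, H2-DMb1 from 34153072 to 34160230, H2-DMb2 from 34143307 to 34151555 and H2-DMa from 34119541 to 34139101. Ciita lies apart on chromosome 16 (10480059 to 10528418, plus strand).

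Promoter sequences are shown because class II genes are known to share the X and Y boxes, which the choice of the genes did not use. RefSeq promoters (GRCm38.p6, 250 bases before to 50 after a start site) were found for 7 of the 10 genes, with 2 start sites for H2-DMa and none for H2-Ab1, Cd74 and Ciita. They were searched on both strands for GATTGG, the core of the Y box bound by NF-Y, and for GNAAC, a core of the X1 box bound by the RFX complex, ending 10 to 40 bases before GATTGG on the same strand. The cores do not overlap, and they were chosen with these sequences in view. In the 71-base windows below, both cores are in capitals, 5′ to 3′ in the direction of transcription.
H2-Aa: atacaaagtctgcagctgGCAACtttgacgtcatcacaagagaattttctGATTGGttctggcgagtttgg
H2-Eb1: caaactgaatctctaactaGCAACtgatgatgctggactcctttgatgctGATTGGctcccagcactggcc
H2-DMb1: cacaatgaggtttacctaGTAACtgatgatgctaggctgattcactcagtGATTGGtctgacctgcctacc
H2-DMb2: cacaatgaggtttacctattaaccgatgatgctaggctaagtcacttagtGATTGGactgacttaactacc
H2-Oa: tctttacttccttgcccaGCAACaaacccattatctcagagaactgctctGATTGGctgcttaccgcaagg
H2-Ob: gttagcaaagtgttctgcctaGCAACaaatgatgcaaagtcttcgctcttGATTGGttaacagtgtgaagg
The windows are chr17:34287852-34287922 (minus strand), chr17:34305757-34305827, chr17:34153079-34153149, chr17:34145108-34145178, chr17:34092285-34092355 and chr17:34238797-34238867 (plus strand). In these windows GATTGG began 44 (H2-Oa) to 91 (H2-DMb2) bases before the start site. It was present in 7 of the 8 member promoters, against 16.1% of all 32851 promoters of the same length. Both cores were present in 5, those of H2-Aa, H2-Eb1, H2-DMb1, H2-Oa and H2-Ob, against 1.69% of all promoters. The cores stood 24 to 27 bases apart in these 5. The H2-DMb2 window holds GATTGG with no GNAAC at the spacing searched, although 62 of its 71 bases are identical with the H2-DMb1 window. Of the H2-DMa promoters, 1 had GATTGG 199 bases before its start, with no GNAAC at the spacing searched, and the other had no GATTGG. A match is a description of letters and not of a bound site.

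Total counts ran from 20056078 (WT replicate 1) to 30784057 (WT replicate 2), and each library held 13330 to 13950 genes with 10 or more counts. Cd55 had 154 to 244 counts in the CD55KO libraries and 2580 to 3715 in the WT libraries (log2 fold change -3.96, adjusted p = 3.9e-12 by edgeR), as the labels imply. WT replicate 1 stood apart along principal component 1, which carried 28.8% of the variance, and also had the highest sum of 6 erythroid markers, 4351 CPM against 35.8 to 1989 CPM elsewhere. Markers of all B cells (Ms4a1, Cd79a, Cd79b, Cd22, Blk) summed to 11945 to 13810 CPM (counts scaled to a common library size) in a library, and 10 MZ markers, among them Cr2, Cd1d1 and Notch2, to 3938 to 4302 CPM. Dendritic cells and macrophages also make class II, so their markers were counted. The 12 dendritic cell markers summed to 21.1 to 24.1 CPM in CD55KO and 21.1 to 24.8 CPM in WT, mostly Sirpa, and Clec9a, Clec10a and Dcstamp were at 0 in every library. The 13 macrophage and monocyte markers summed to 60.3 to 64.9 CPM in CD55KO and 49.9 to 55.6 CPM in WT. These sums did not overlap, and none of the markers passed the test. Spic (means 11.8 CPM in CD55KO and 7.27 CPM in WT) and Cd68 (16.1 and 11.8 CPM) differed most in CPM. Of the 11 tested, 6 had a positive log2 fold change and 5 a negative one. In 3 of the 11 every CD55KO library was above every WT library, where 14.1% of all genes did not overlap. None of the marker lists but that of plasma cells, which shut class II off, held a called gene. On that list 2 of 7 tested members fell, Creld2 and Xbp1, where 0.261% of all genes fell. Its sum was 203 to 214 CPM in CD55KO against 257 to 306 CPM in WT. For 4 of the 7 every CD55KO library was below every WT library, against 6.83% of all genes. Sdc1, Derl3 and Slamf7 overlapped, and Slamf7 was higher on average in CD55KO (78.6 ± 15.7 against 66.5 ± 9.20 CPM). The part of these cells in the class II values was not tested.

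Cd74 and the class II chains were among the most abundant transcripts of these cells. Cd74 had more counts than any other gene in all 6 libraries, 1201296 to 2062378. The 10 genes together made up 9.15, 8.77 and 8.80% of all counts in the CD55KO libraries, against 8.38, 8.39 and 9.72% in the WT libraries. WT held both the lowest and the highest share, so the genotypes overlapped. Means were 8.90 ± 0.21% in CD55KO and 8.83 ± 0.77% in WT (SD, n = 3, exact permutation test, two-sided, p = 1.0, adjusted p = 1.0 over 6 shares and ratios). With 3 libraries against 3 this test cannot go below 0.1.

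Levels of different genes were compared per length, as CPM per kb of the principal coding transcript (RPKM). Cd74 stood at 45380 ± 3818 RPKM (SD over 6 libraries), 6.49 times the next gene, H2-Aa, at 6996 ± 443 RPKM. H2-Ab1 followed at 6524 ± 557 RPKM. Per length, H2-Aa was above H2-Ab1 in 6 of 6 libraries, although the ranges of these chains, which pair with each other, overlapped. By counts H2-Aa was above H2-Ab1 only in CD55KO replicates 1 and 2. H2-Eb1, whose usual partner is the product of H2-Ea, stood at 2952 ± 205 RPKM. H2-Ea, which C57BL/6 mice do not express because its promoter is deleted, had 4, 3 and 0 counts in the CD55KO libraries, against 0, 2 and 3 in the WT libraries. Both genotypes thus had H2-Ea near the limit of 3 counts that a count of 0 allows.

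The editors were lower. H2-DMb2 stood at 1111 ± 102 RPKM, H2-DMa at 591 ± 35.3 RPKM, H2-Oa at 482 ± 28.4 RPKM and H2-Ob at 208 ± 8.06 RPKM. The ranges of these neighbours did not overlap over the 6 libraries. Their order depends on the transcript lengths. Before division by length H2-Ob, with 2670 bases, was above H2-Oa, with 1088 bases, in every library. At the lower end, Ciita had 64.6 ± 6.23 RPKM and H2-DMb1 60.4 ± 5.31 RPKM, and these overlapped, with Ciita above H2-DMb1 in 5 of 6 libraries. H2-DMb1 thus lay far below H2-DMb2, the other gene for a DM beta chain.

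**Figure D1:**
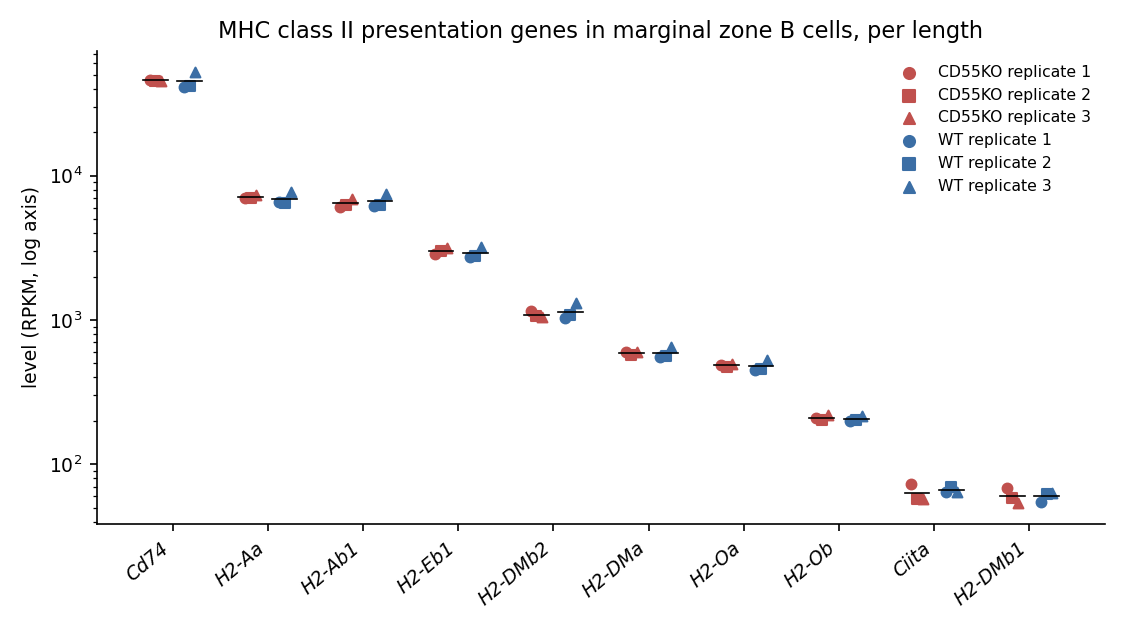
Level of each gene (RPKM, log axis) in the 3 CD55KO (red) and 3 WT (blue) libraries, with symbols for the replicate number and short lines for the group means. Cd74 lies above all other genes, Ciita and H2-DMb1 lie lowest, and the genotypes overlap for every gene.

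None of the 10 genes passed the adjusted threshold of 0.05 between CD55KO and WT. In edgeR's quasi-likelihood test over 13795 genes, 55 passed (0.399%), and none of the 10 members, all of which passed the count filter. None had an unadjusted p under 0.05 either, which 8.60% of all genes had. DESeq2 and limma-voom called none. The libraries of the genotypes overlapped for all 10, where 14.1% of all genes had libraries that did not. Of the log2 fold changes (CD55KO against WT) 5 were positive and 5 negative, where 49.6% of all genes had a negative one, with a median of 0.0084, next to 0.0014 over all genes. They ran from -0.07 (Ciita) to 0.05 (H2-Eb1), with adjusted p from 0.912 to 0.998. The 95% intervals of the members together covered a level in CD55KO from 17.6% lower (the lower bound of Ciita) to 18.6% higher (the upper bound of H2-Eb1). In bulk samples a change in the share of cells that make a transcript and a change in its level per cell cannot be told apart.

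**Figure D2:**
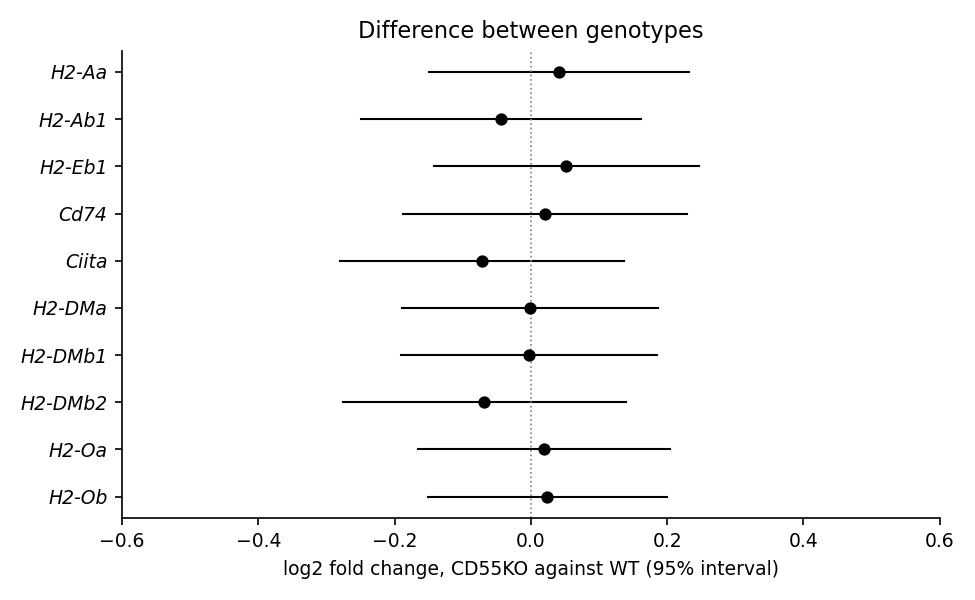
Log2 fold change of CD55KO against WT with its 95% interval from edgeR for each gene. Points lie between -0.07 and 0.05, and all 10 intervals include 0.

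Among the class II chains, H2-Aa had 7849, 7933 and 8232 CPM in the CD55KO libraries, against 7416, 7290 and 8628 CPM in the WT libraries. CD55KO values lay between the lower WT libraries and WT replicate 3. The log2 fold change was 0.04 ± 0.09 (SE, adjusted p = 0.950), with a 95% interval from -0.15 to 0.23. H2-Ab1, its beta chain, had 7359, 7586 and 8412 CPM in the CD55KO libraries, against 7467, 7564 and 9051 CPM in the WT libraries. Here replicate 3 was the highest library of both genotypes (log2 fold change -0.04 ± 0.10, adjusted p = 0.951). H2-Eb1 had 4752, 5005 and 5290 CPM in the CD55KO libraries, against 4535, 4633 and 5348 CPM in the WT libraries (log2 fold change 0.05 ± 0.09, adjusted p = 0.936). All CD55KO values of H2-Eb1 were above WT replicates 1 and 2 and below WT replicate 3.

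The count of H2-Aa per count of H2-Ab1, which does not depend on scaling between libraries, was 1.07, 1.05 and 0.979 in the CD55KO libraries. In the WT libraries it was 0.993, 0.964 and 0.953. Only CD55KO replicate 3 overlapped the WT libraries. The means of 1.03 ± 0.05 and 0.970 ± 0.021 differed by 6.21% of the WT value (exact permutation test, two-sided, p = 0.2, adjusted p = 0.96 over 6 shares and ratios).

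Cd74, the chaperone of the chains, lies on chromosome 18 (60803848 to 60812652, plus strand). It had 65244, 64068 and 64027 CPM in the CD55KO libraries, against 58354, 58946 and 73272 CPM in the WT libraries. The CD55KO libraries were close together, while WT replicate 3 was far above the other WT libraries. The log2 fold change was 0.02 ± 0.10 (adjusted p = 0.987, 95% interval -0.19 to 0.23). Cd74 counts per count of the 3 class II chains were 3.27, 3.12 and 2.92 in the CD55KO libraries, against 3.01, 3.03 and 3.18 in the WT libraries (means 3.10 ± 0.18 and 3.07 ± 0.10, exact permutation p = 0.8, adjusted p = 0.96). The genotypes overlapped in this ratio.

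Of the DM genes, H2-DMa, for the alpha chain, had 997, 953 and 988 CPM in the CD55KO libraries, against 922, 935 and 1084 CPM in the WT libraries (log2 fold change -0.0020 ± 0.09, adjusted p = 0.998). H2-DMb2 had 1639, 1513 and 1483 CPM in the CD55KO libraries, against 1475, 1531 and 1853 CPM in the WT libraries (log2 fold change -0.07 ± 0.10, adjusted p = 0.915). H2-DMb1 had 95.7, 82.6 and 76.2 CPM in the CD55KO libraries, against 77.6, 87.8 and 89.4 CPM in the WT libraries (log2 fold change -0.0025 ± 0.09, adjusted p = 0.998). CD55KO replicate 1 was the highest CD55KO library for all 3 DM genes. H2-DMa overlaps Brd2 on the opposite strand, which held 2244 to 3732 counts, and reads of such a stretch cannot be told apart without strand. However, 0 of the 1609 windows of 50 bases in the principal H2-DMa transcript occurred in a transcript of another gene on either strand.

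The 2 DM beta genes are near copies, so their reads may be split between them by the counting. Their principal transcripts were identical at 94.4% of 1255 aligned bases. Of all 50-base windows, 27.2% of those of H2-DMb1 and 32.8% of those of H2-DMb2 also occurred in another gene, which was the other DM beta gene and, for H2-DMb2, also Zw10. The deposited counts of both were not whole numbers in any library, and their separate values are uncertain. Counts of H2-DMa and H2-Oa were also not whole in any of the 6 libraries, and those of Ciita were not whole in 2. H2-DMb1 counts were 0.0584, 0.0546 and 0.0514 per count of H2-DMb2 in the CD55KO libraries, against 0.0526, 0.0573 and 0.0482 in the WT libraries (exact permutation p = 0.6, adjusted p = 0.96). Summed into 1 feature they had 1630 ± 92.7 CPM in the CD55KO libraries, against 1705 ± 209 CPM in the WT libraries (log2 fold change -0.06 ± 0.10, adjusted p = 0.915), so the sum did not pass either.

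The DO genes varied least. H2-Oa, the alpha chain, had 531, 512 and 541 CPM in the CD55KO libraries, against 491, 498 and 575 CPM in the WT libraries (log2 fold change 0.02 ± 0.09, adjusted p = 0.986). H2-Oa overlaps BC051537 on the opposite strand, and 21.7% of its 50-base windows occur in that gene. The libraries carry no strand, so reads of these 2 genes cannot be told apart there, although BC051537 held only 123 to 161 counts against 10114 to 16171 for H2-Oa. H2-Ob, the beta chain, had 558, 539 and 586 CPM in the CD55KO libraries, against 534, 543 and 578 CPM in the WT libraries (log2 fold change 0.02 ± 0.08, adjusted p = 0.976). H2-Ob had the smallest spread of the 10 genes, with a coefficient of variation of 3.87% over the 6 libraries against 5.89 to 9.65% for the others.

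The balance of editor and inhibitor was read as DM counts (H2-DMa, H2-DMb1 and H2-DMb2) per DO count (H2-Oa and H2-Ob). This ratio was 2.51, 2.42 and 2.26 in the CD55KO libraries, against 2.41, 2.45 and 2.63 in the WT libraries. CD55KO replicates 1 and 2 lay within the WT range and CD55KO replicate 3 below it. The means were 2.40 ± 0.13 and 2.50 ± 0.11, a difference of -4.02% of the WT value (exact permutation p = 0.5, adjusted p = 0.96).

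Ciita had 440, 347 and 348 CPM in the CD55KO libraries, against 388, 420 and 384 CPM in the WT libraries. CD55KO replicate 1 was the highest of all libraries and the other CD55KO libraries were the lowest. The log2 fold change was -0.07 ± 0.10 (adjusted p = 0.912, 95% interval -0.28 to 0.14), and -0.19 without CD55KO replicate 1 (adjusted p = 0.466). Leaving out CD55KO replicate 2 or CD55KO replicate 3 gave -0.017. Per 1000 counts of the class II chains, Ciita counts ran from 15.84 to 22.03 in the CD55KO libraries and from 16.69 to 21.55 in the WT libraries (exact permutation p = 0.8, adjusted p = 0.96). Ciita also overlaps Dexi, which held 50 to 96 counts. The most Ciita per class II chain was thus found in CD55KO replicate 1 and WT replicate 2.

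The SD of the CPM was larger in WT than in CD55KO for 7 of the 10 genes. WT replicate 3 was the highest library for 7 of the 10 genes and WT replicate 1 the lowest for 6, and for 6 the CD55KO range lay inside the WT range. The sum of the 10 genes was 89465, 88539 and 89982 CPM in the CD55KO libraries, against 81660, 82448 and 100862 CPM in the WT libraries. WT replicate 3 also had the highest sum of the 5 markers of all B cells, 13810 CPM, and the lowest scaling factor, 0.964. The part of these in the class II values was not tested. Without WT replicate 3, 9 of the 10 log2 fold changes were positive, up to 0.14 for Cd74 (adjusted p = 0.769), and that of Ciita was -0.10. None of the 10 passed in that fit. The difference in the summed share of the 10 genes was then 0.52 percentage points, in place of 0.073.

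Ciita did not follow the other 8 genes over the libraries, and H2-DMb1 followed them only in part. Among those 8, Pearson's r of log2 CPM over the 6 libraries was 0.46 to 0.98 for the 28 pairs, with a median of 0.83. Ciita had r of -0.60 to 0.29 with them and 0.76 with H2-DMb1. H2-DMb1 had r of -0.10 to 0.67 with the 8, with a median of 0.19. Its highest, with H2-DMb2, lay within the range of the 28 pairs. These are descriptions over 6 libraries that share depth and scaling, and they carry no test. The genes outside the lists whose log2 CPM was most like that of the summed members, of 5765 with a mean of at least 20 CPM, were Sdc4 (r = 0.996), 1300002E11Rik (0.986), Entpd6 (0.978), Rnaseh1 (0.977) and Pigp (0.974), and 52 genes had r over 0.9. Sdc4 encodes the proteoglycan syndecan 4. It had 454, 444 and 461 CPM in the CD55KO libraries, against 408, 407 and 519 CPM in the WT libraries. WT replicate 3 was its highest library, which its choice by likeness to the summed members favours.

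**Figure D3:**
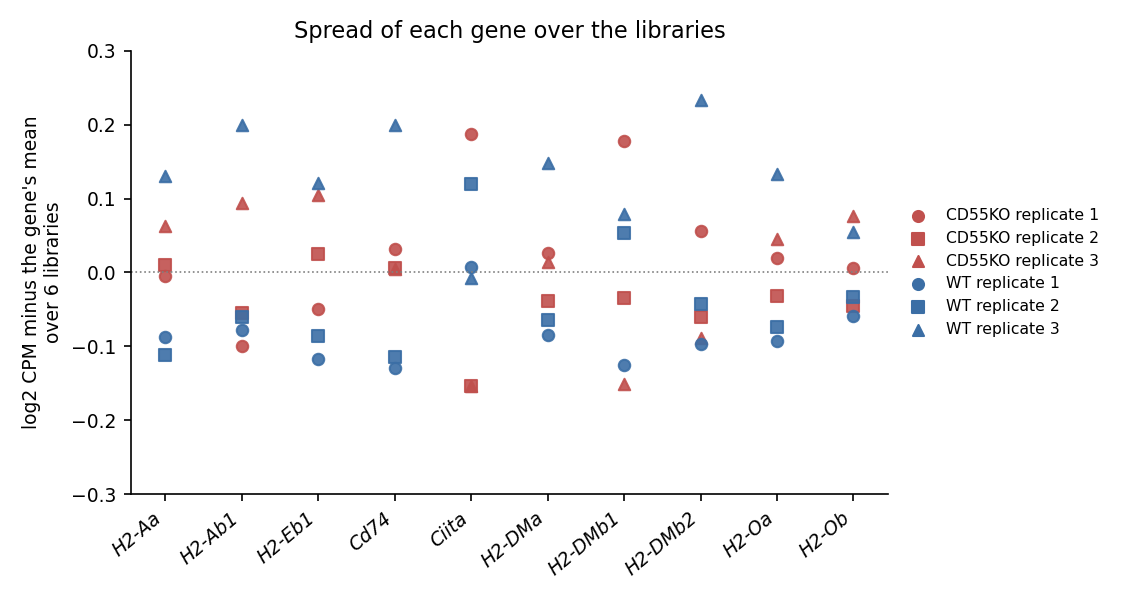
Log2 CPM of each gene in each library minus that gene's mean over the 6 libraries, with red for CD55KO, blue for WT and symbols for the replicate number. WT replicate 3 is highest for 7 of the 10 genes, while CD55KO replicate 1 is highest for Ciita and H2-DMb1.

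Beyond the 10 genes, 84 tested genes on 5 lists of the pathway were compared, of which 1 passed, against 0.399% of all genes. It fell, which 0.261% of all genes did. Of 3 tested further genes of the class II region none passed. H2-Eb2, a second E beta gene, had 33.7, 34.5 and 36.0 CPM in the CD55KO libraries, against 29.7, 24.7 and 36.8 CPM in the WT libraries (log2 fold change 0.19 ± 0.12, adjusted p = 0.724). The log2 fold change of H2-Eb2 was 0.06 without WT replicate 2 and 0.36 without WT replicate 3. Btnl1, a butyrophilin-like gene, had 1.95 ± 0.20 CPM in the CD55KO libraries, against 1.29 ± 0.14 CPM in the WT libraries (adjusted p = 0.605).

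Of 24 tested regulators of class II genes, among them the RFX and NF-Y subunits that bind the promoter boxes above, 1 fell and 23 did not pass. That call was lost with CD55KO replicate 2 or 3 left out, with WT replicate 2 or 3 left out, and in the non-robust fit, while the direction was the same in all 16 alternatives. The median log2 fold change of the list was -0.03. For 7 of the 24 every CD55KO library was below every WT library, a larger share than the 6.83% of all genes. These included Nfya, Nfyb and Irf1, but also Bcl6, Ezh2 and Prdm1, which is on the plasma cell list too. The RFX genes Rfx5, Rfxank and Rfxap overlapped between the genotypes. For 1 of the 24, Nfyc, every CD55KO library was above every WT library. These shares were not tested. Of 30 tested trafficking and turnover genes, none passed (median -0.01). Cd83, whose product keeps class II on the surface by opposing the ubiquitin ligase MARCH1, had 277, 249 and 251 CPM in the CD55KO libraries, against 293, 275 and 308 CPM in the WT libraries. The groups overlapped (log2 fold change -0.18 ± 0.08, adjusted p = 0.582). Ap2a1, a subunit of the AP-2 adaptor of endocytosis, had 12.2 ± 0.63 CPM in the CD55KO libraries, against 14.7 ± 1.21 CPM in the WT libraries (adjusted p = 0.570). Of 12 tested genes for T cell help and costimulation, none passed (median -0.02). Cd48, which encodes a ligand of CD2 and CD244, had 291, 292 and 316 CPM in CD55KO, all above the 237, 263 and 278 CPM in WT (log2 fold change 0.21 ± 0.08, adjusted p = 0.480). Tnfsf9, which encodes the ligand of 4-1BB, had 2.03 ± 0.97 CPM in the CD55KO libraries, against 3.11 ± 0.91 CPM in the WT libraries (log2 fold change -0.62 ± 0.34, adjusted p = 0.653), and its log2 fold change ran from -0.35 (without CD55KO replicate 1) to -1.07 (without CD55KO replicate 3).

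Of 15 tested proteases and cofactors of class II processing, none passed (median -0.00076). An unadjusted p under 0.05 in edgeR's test was found for 4 of the 15, against 8.60% of all genes. In 3 every CD55KO library was above every WT library and in 2 below, where 14.1% of all genes did not overlap. Neither share was tested. A single protease gene had by far the largest fold change on the lists. Ctse, which encodes the endosomal aspartic protease cathepsin E, had 319, 304 and 293 CPM in the CD55KO libraries, against 41.2, 18.3 and 16.0 CPM in the WT libraries. Every CD55KO library was at least 7.12 times the highest WT library. The log2 fold change was 3.62 ± 0.45, and edgeR's robust fit gave it an adjusted p of 0.133. DESeq2 (adjusted p = 7.2e-12), limma-voom (3.2e-06) and the non-robust edgeR fit (7.8e-05) called Ctse, as did the robust fit without WT replicate 1 (2.0e-12), its highest WT library. The other 12 of the 16 alternatives did not call Ctse, with adjusted p from 0.102 (no count filter) to 0.407 (without CD55KO replicate 2), and its log2 fold change was 3.37 to 4.15 over all 16. Ctse lies on chromosome 1 from 131638306 to 131675505 (plus strand, GRCm38), 1.18 Mb from Cd55. Sppl2b, a relative of the protease that removes the membrane stub of the invariant chain, had 26.7, 23.3 and 21.6 CPM in the CD55KO libraries, against 31.2, 28.3 and 30.8 CPM in the WT libraries (log2 fold change -0.34 ± 0.10, adjusted p = 0.266).

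**Figure D4:**
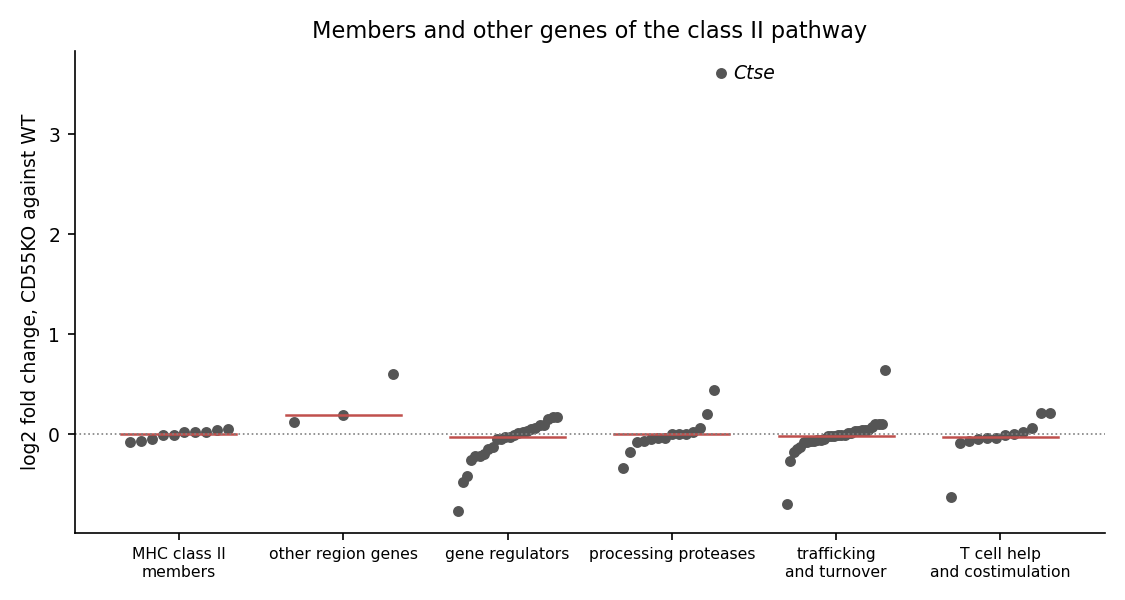
Log2 fold change of CD55KO against WT for the 10 members and for each tested gene of the 5 pathway lists, sorted within a list, with the median as a red line. Ctse lies at 3.62, apart from all other genes shown, and the medians lie near 0 but for the 3 further genes of the class II region.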

How the data were processed

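Messenger RNA was measured in 3 CD55KO and 3 WT libraries of sorted MZ B cells. Per the labels' protocols, an RNeasy micro kit served for extraction and a SMARTer Ultra Low kit, whose reads carry no strand, for the libraries. The values deposited by the authors are estimated counts per gene, not scaled to a common total, and 30.9 to 31.9% of each library's values above 0 were not whole (tolerance 0.005). The submitters' processing notes list DRAGEN, edgeR and limma and give no version or role of any. The sources used here name no build, annotation or aligner settings. Repeated rows (287 of 55774) were removed and counts rounded to whole numbers. Counts of same-genotype libraries differed beyond sampling noise (chi-square over its degrees of freedom, 14.1 to 36.1).

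Genotypes were compared with edgeR 4.0.16 (R 4.3.3): filterByExpr at its defaults (13795 genes kept), TMM scaling, robust quasi-likelihood F-test, genotype alone in the model, and Benjamini-Hochberg adjustment over all genes with a threshold of 0.05. CPM values are TMM-scaled, and SE and 95% intervals come from this fit. Shares and ratios were compared by exact permutation tests with scipy 1.17.1. Gene IDs, of which 99.4% matched, gave positions and lengths in GENCODE M21 (GRCm38), and promoters came from RefSeq (GRCm38.p6). All 10 members were named, and from each pathway list up to 4 genes past the threshold or else the 2 with the smallest p. Further regulators are named only for whether their libraries overlapped. The members and lists were chosen with earlier results of these data known. The results of 1 member of the regulator list and of 1 B cell marker are not reported here.

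Alternatives were the DESeq2 1.42.0 Wald test, limma-voom (limma 3.58.1), a non-robust fit, scaling by DESeq2 size factors or by library totals, no count filter, 50 counts required in 3 libraries, no immunoglobulin genes, the DM beta genes summed, the replicate block and leaving out each library.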

Additional observations from a re-analysis of the deposited data

How the results depend on the processing

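No member passed under any of the 16 alternatives (15 for the DM beta genes), where the smallest adjusted p was 0.466 (Ciita without CD55KO replicate 1), and their log2 fold changes stayed between -0.19 and 0.14. H2-Eb1 and Ciita kept their sign throughout, but leaving out 1 library moved them between 0.0078 (without WT replicate 1) and 0.13 (without WT replicate 3) for H2-Eb1 and between -0.19 and -0.017 for Ciita. The sign of H2-DMa, at -0.0020, turned with the replicate block (0.0016) and by limma-voom (0.0023). Over the fits that each left out 1 library the log2 fold changes ran from -0.0024 to 0.12 for H2-Aa, -0.11 to 0.050 for H2-Ab1, -0.036 to 0.14 for Cd74, -0.044 to 0.075 for H2-DMa, -0.097 to 0.067 for H2-DMb1, -0.13 to 0.039 for H2-DMb2, -0.021 to 0.094 for H2-Oa and -0.011 to 0.058 for H2-Ob, so each of these turned in at least 1 such fit. The number of genes called over the whole table was 55, and 137 by DESeq2, 232 with no count filter and 37 to 53 without 1 library. Of the pathway genes 1 was called, and 2 by DESeq2, 2 by limma-voom and 0 to 2 without 1 library (2 without WT replicate 1, 1 without CD55KO replicate 1 and 0 in the other 4 fits). The DESeq2, limma-voom and WT replicate 1 changes come from Ctse, and the 4 fits with 0 lost the regulator call. The non-robust fit also lost that call but called Ctse, so its count of 1 is a different gene. The cause of the changes over the whole table was not tested. Differences in shares and ratios (CD55KO minus WT) moved by less than 1 pooled SD of the 2 genotypes under each alternative, but several turned with 1 library left out. The difference in the summed share, 0.073 percentage points, ran from -0.15 to 0.52 and was negative with CD55KO replicate 1 or either of WT replicates 1 and 2 left out. That in Cd74 per class II chain ran from -0.050 to 0.12 and was negative without CD55KO replicate 1 or WT replicate 1, that in H2-DMb1 per H2-DMb2 from -0.00019 (without WT replicate 3) to 0.0044, and that in Ciita per 1000 chain counts from -3.03 to 0.068 (without CD55KO replicate 3). The differences in DM per DO and in H2-Aa per H2-Ab1 kept their sign. The labels do not say that same-numbered libraries of the genotypes are paired. Their deviations from the group means had correlations of 0.08, -0.12 and 0.17, and not every library correlated best with its own number. With only 3 libraries of a genotype these correlations cannot decide whether libraries were paired. The replicate block gave 64 called genes in place of 55 and no called member. Even the lowest member, H2-DMb1, had 1597 counts in its lowest library.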
